A study of Mus musculus with 10 samples.

Results

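The genes described here encode receptors for glutamate and GABA, the main excitatory and inhibitory transmitters of the brain. They are 38 genes taken by name, with earlier results of these data known, out of 21883 protein-coding genes on chromosomes 1 to 19, X and Y. They comprise 4 AMPA, 5 kainate, 7 NMDA and 1 delta receptor subunit genes, 7 metabotropic glutamate receptor genes, 12 GABA-A and 2 GABA-B receptor genes. For each gene the peaks overlapping its body or the 5 kb on either side were taken from 8 lists and compared between treatments. The chromatin came from neural stem and progenitor cells of the forebrain of mouse embryos (E13.5), and the sources used here name no strain and no engineered allele. The cells grew with epidermal and fibroblast growth factor, each at 20 ng/ml, and received water (control) or 10 mM crotonate, a salt of a short-chain fatty acid that cells turn into crotonyl-CoA, for 24 h. Native chromatin immunoprecipitation, in which chromatin is not crosslinked, gave 1 library for each of 4 marks and each treatment, and 2 input libraries that were not analysed here. With 1 library per mark and treatment no difference below has a replicate check, and no test or p-value could be given.

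AMPA, kainate and NMDA receptors are ion channels opened by glutamate, metabotropic glutamate receptors and GABA-B receptors act through G proteins, and GABA-A receptors are chloride channels opened by GABA. Most of these genes are used by neurons and less by dividing progenitors, and several reach high levels only after birth. Trimethylation of histone H3 at lysine 4 (H3K4me3) marks promoters. Acetylation of lysine 27 (H3K27ac) and crotonylation of lysine 9 (H3K9cr), for which crotonyl-CoA is the donor, mark active promoters and enhancers, and trimethylation of lysine 27 (H3K27me3) is set by Polycomb complexes at silent genes. A start that carries H3K4me3 and H3K27me3 together is called bivalent, a state known from developmental genes of stem cells. Each mark was read in its own library of the whole culture, which cannot show whether both lay in the same cells, so the word refers here to the peak lists only.

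The lists held 17322 to 59868 peaks, and for each mark the crotonate list was the longer one. Read depth is unknown. The lowest background pileup implied by any peak of a list lay between 2.67 and 3.74 in the 8 lists, and for H3K9cr and H3K27ac it was lower after crotonate (3.2 and 2.68) than in control (3.74 and 3.11). The median H3K27ac peak was 881 bp wide in control and 625 bp after crotonate. The median fold enrichment of peaks, their pileup over local background, was lower after crotonate for each mark. It was 14.7 in control and 9.42 after crotonate for H3K9cr, and 5.59 and 4.62 for H3K27ac. For H3K4me3 it was 102 and 91.6, and for H3K27me3 4.34 and 4.03. Per the labels, control and crotonate libraries name different antibody vendors for H3K4me3 and for H3K27me3, and for H3K9cr and H3K27ac a vendor appears with the control library alone, while the catalogue numbers were the same. The parts of depth, of antibody and of treatment in a difference between lists cannot be told apart. Of 10 marker genes of neural stem and progenitor cells, 9 had H3K4me3 and 9 had H3K27ac at the start in control. After crotonate both counts were again 9. Of 8 neuronal markers, 3 had H3K27ac at the start in control and 4 after crotonate, and 5 and 3 were bivalent there. H3K27ac lay at the start of 4 and 3 of 6 astrocyte markers, 4 and 5 of 6 markers of the oligodendrocyte lineage, and 2 and 3 of 10 markers of other cells such as vessels and microglia. Over all protein-coding genes, H3K27ac lay at 57.8% of starts in control and 57.9% after crotonate, and H3K4me3 at 60.6% and 61.9%. Bivalent starts made up 16.2% and 14.1% of them. The part of cell composition in the results below was not tested.

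The receptor genes are long. Their median length was 199 kb, against 17.2 kb for all protein-coding genes, and 23 of the 38 reached 100 kb. Counts over the receptor genes are therefore set beside those over all protein-coding genes and beside the 2428 protein-coding genes of at least 100 kb. Some windows hold other genes. Those of Gabra4 and Gabrb1, which lie head to head, overlap and share their start region, and those of Gabra5, Grik5, Grin1, Grin2c, Grin2d, Grin3a, Grin3b, Grm2, Grm3 and Gabrd reach into neighbours. A peak in such a stretch counts for each gene whose window it touches. The start of 28 genes was taken from RefSeq. For the other 10 (Gria1, Gria3, Grik1, Grin2a, Grin2b, Grin3a, Grid1, Grm4, Grm5 and Gabrd), where no start was at hand, a mark at either annotated end was counted. In 9 of these genes all such peaks lay at 1 end, the one with H3K4me3, and Grm4 also had peaks at the opposite end after crotonate.

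The promoter sequences below show what lies just upstream of the starts at which the marks were compared. Each is the 250 bases before the RefSeq start, 5′ to 3′ on the gene's own strand, from the RefSeq sequences of GRCm38.p6, with every CpG in capitals. Grik4 (chr9:42944372-42944621, minus strand), Grin2d (chr7:45866682-45866931, minus strand) and Gabbr1 (chr17:37045716-37045965, plus strand) had H3K27me3 near the start in control and not after crotonate. Grik3 (chr4:125490446-125490695, plus strand) was bivalent in both treatments, Gria2 (chr3:80802836-80803085, minus strand) had H3K4me3 without H3K27me3 in both, and Gabra6 (chr11:42321073-42321322, minus strand) had no peak of any mark in either. For Grik4, Grin2d, Grik3 and Gria2 the annotated gene reaches further upstream than this start.
Grik4: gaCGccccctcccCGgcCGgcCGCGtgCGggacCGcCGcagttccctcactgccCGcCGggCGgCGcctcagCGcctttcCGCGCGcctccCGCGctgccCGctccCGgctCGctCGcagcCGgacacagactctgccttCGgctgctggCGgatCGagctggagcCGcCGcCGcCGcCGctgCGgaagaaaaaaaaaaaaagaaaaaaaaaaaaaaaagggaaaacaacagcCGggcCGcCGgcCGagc
Grin2d: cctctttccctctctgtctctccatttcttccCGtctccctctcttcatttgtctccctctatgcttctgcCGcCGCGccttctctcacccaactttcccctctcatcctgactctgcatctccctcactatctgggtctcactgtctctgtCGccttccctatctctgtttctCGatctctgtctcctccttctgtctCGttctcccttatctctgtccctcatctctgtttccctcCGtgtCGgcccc
Gabbr1: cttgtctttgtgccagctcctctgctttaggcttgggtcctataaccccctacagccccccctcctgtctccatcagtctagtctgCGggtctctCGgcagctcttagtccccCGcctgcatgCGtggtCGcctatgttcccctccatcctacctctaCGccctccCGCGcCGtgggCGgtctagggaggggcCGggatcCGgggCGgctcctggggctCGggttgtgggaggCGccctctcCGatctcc
Grik3: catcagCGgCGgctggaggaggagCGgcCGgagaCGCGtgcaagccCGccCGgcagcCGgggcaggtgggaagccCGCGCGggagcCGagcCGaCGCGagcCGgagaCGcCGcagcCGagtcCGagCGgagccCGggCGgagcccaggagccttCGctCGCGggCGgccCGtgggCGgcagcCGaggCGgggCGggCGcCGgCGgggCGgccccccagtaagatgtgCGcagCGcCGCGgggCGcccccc
Gria2: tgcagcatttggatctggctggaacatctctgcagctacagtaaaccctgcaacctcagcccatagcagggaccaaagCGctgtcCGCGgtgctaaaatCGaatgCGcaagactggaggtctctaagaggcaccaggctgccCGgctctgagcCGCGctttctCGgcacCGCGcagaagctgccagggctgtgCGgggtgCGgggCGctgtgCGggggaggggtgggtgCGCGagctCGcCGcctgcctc
Gabra6: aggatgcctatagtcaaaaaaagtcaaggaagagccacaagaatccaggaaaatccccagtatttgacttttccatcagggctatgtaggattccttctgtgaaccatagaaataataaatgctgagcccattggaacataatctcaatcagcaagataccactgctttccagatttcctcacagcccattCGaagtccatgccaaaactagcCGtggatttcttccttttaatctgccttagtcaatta

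These 250 bases held 36 CpG at Grik4, 9 at Grin2d, 16 at Gabbr1, 42 at Grik3, 19 at Gria2 and 2 at Gabra6. Grin2d thus had fewer CpG than the other 4 marked starts. Over the 300-base promoters of the 28 genes with a RefSeq start (250 before and 50 after it), the median CpG number was 22 at the 19 starts that were bivalent in control, 10 at the 5 with H3K4me3 alone and 2 at the 3 with neither mark. Over all protein-coding genes the medians were 21, 22 and 2. Starts poor in CpG occurred in both of the marked states, with 0 at Gabra3, 3 at Gabrg1 and 10 at Grik5 among those with H3K4me3 alone, and 4 at Grm6, 10 at Grm7 and 11 each at Grm3 and Gabrb2 among the bivalent ones. On either strand, the letters GGGCGG of the GC box were present in 16 of the 28 promoters (57.1%) and in 46.3% of all 17491 promoters, and the TATA-box letters TATAAA in 3 (Grin3b, Gabrb2 and Gabra3, 10.7%) and in 13.3%. The letters CAGCACC and GGACAGC, the arms of the element bound by the repressor REST, were found in 1 and 2 receptor promoters and in 7.14% and 6.84% of all, and Grm2 alone held both.

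The first comparison asked which marks lay within 1 kb of each start. In control, 28 of the 38 receptor starts were bivalent (73.7%), against 16.2% of all protein-coding genes and 36.3% of those of at least 100 kb. After crotonate 24 were bivalent (63.2%), against 14.1% and 28.9%. H3K4me3 without H3K27me3 was found at 6 starts in control and 10 after crotonate. The NMDA receptor gene Grin3b had H3K27me3 without H3K4me3 in both treatments, and Gabra6, Gabrr1 and Gabrr2 had neither mark in both. H3K4me3 lay at 34 starts in both treatments (89.5%), against 60.6% and 61.9% of all genes in control and after crotonate, and 83.4% and 84.3% of long ones. H3K9cr lay at 32 starts in control (84.2%) and 33 after crotonate (86.8%), against 61.9% and 63.1% of all genes and 83.4% and 84.8% of long ones. H3K27ac lay at 21 (55.3%) and 24 (63.2%), against 57.8% and 57.9% of all genes and 76.5% and 75.6% of long ones. H3K27me3 lay at 29 (76.3%) and 25 (65.8%), against 20.9% and 18.7% of all genes and 39.3% and 31.2% of long ones. Beside long genes the receptor shares for H3K4me3 and H3K9cr were close, that for H3K27ac was lower and that for H3K27me3 higher. No test of these differences was made.

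**Figure D1:**
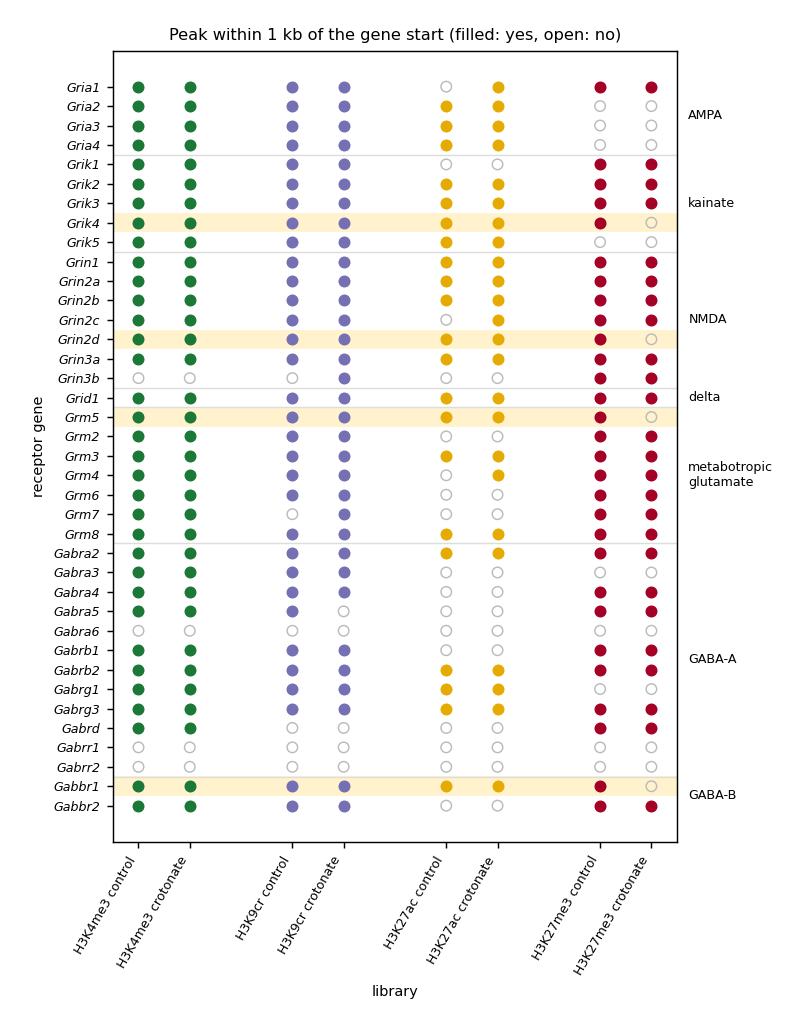
Peaks within 1 kb of the start of the 38 receptor genes (rows, grouped by receptor class) in the 8 libraries (columns). A filled circle is a peak and an open one none. For genes without a RefSeq start, such as Grm4, a peak at either annotated end counts. The shaded rows are Grik4, Grin2d, Grm5 and Gabbr1, where the H3K27me3 circle is filled in control and open after crotonate.

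Classes differed in these states. All 7 metabotropic glutamate receptor starts, 6 of 7 NMDA, 4 of 5 kainate and both GABA-B starts were bivalent in control. Of the AMPA receptor genes only Gria1 was bivalent. Gria2, Gria3 and Gria4 had H3K4me3, H3K9cr and H3K27ac at the start but no H3K27me3 there in either treatment. The other genes of this kind were Grik5, which encodes the kainate subunit GluK5, and Gabrg1, the gamma1 subunit gene. Elsewhere in the Grik5 window H3K27me3 covered 5071 bp in control and 4293 bp after crotonate. Its nearest peak lay 58909 and 58724 bp from the Grik5 start. Gabra3, for the alpha3 subunit of GABA-A receptors, had H3K4me3 and H3K9cr and neither lysine 27 mark. The GABA-A genes were the most mixed: 7 bivalent, 2 with H3K4me3 alone and 3 with neither mark. Those 3 were Gabra6, known from cerebellar granule cells, and Gabrr1 and Gabrr2, which encode rho subunits known from the retina.

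At 4 starts the state differed between treatments, and each was bivalent in control and carried H3K4me3 alone after crotonate: Grik4, Grin2d, Grm5 and Gabbr1. Of the 3554 protein-coding genes bivalent in control, 781 (22%) did the same, and the receptor genes did not exceed that share. With changes of any kind counted, the state differed at 4 of 38 receptor starts (10.5%) and at 7.06% of all starts. All 4 were among the 16 bivalent receptor starts with H3K27ac in control (29.1% of 2611 such genes), and 0 were among the 12 without it (2.23% of 943). The number of bivalent receptor starts depended on the window and on the peaks kept. It was 26 in control and 19 after crotonate within 500 bp, and 28 and 26 within 2 kb, where Grin2d stayed bivalent. With equal numbers of peaks it was 28 and 22, and with the stronger 50% of each list 4 and 5. The stronger 50% kept 10 of 50 control and 16 of 52 crotonate H3K4me3 peaks at receptor genes, so peaks far above background were also dropped.

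Gabbr1 (chromosome 17, 37045966 to 37074305) encodes the subunit of the GABA-B receptor that binds GABA. Its window had 3 H3K27me3 peaks covering 2047 bp in control and 0 after crotonate. The control peaks were weak, with fold enrichments (pileup over local background, the authors' value) of 4.66, 2.98 and 3.52. The 4.66-fold peak was 321 bp wide, ended 903 bp upstream of the start, at the edge of the 1 kb window, and did not touch the H3K4me3 peak. After crotonate the nearest H3K27me3 peak was 34205 bp away. H3K4me3 at the start was 161-fold enriched in control and 142-fold after crotonate, and it covered 4402 and 4228 bp of the window. H3K9cr covered 5852 and 4677 bp and H3K27ac 5817 and 4330 bp. Among the 32 receptor genes with H3K27me3, Gabbr1 and Grm5 had it in control only. So had 9.96% of the 8430 genes with that mark and 12.2% of the 1493 such genes of at least 100 kb.

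Grin2d (chromosome 7, 45831883 to 45871194) encodes the GluN2D subunit of NMDA receptors, known for its early expression in development. It had the widest H3K27me3 cover of any receptor gene, 20365 bp in control and 22580 bp after crotonate. Within that cover the peak at the start, 1513 bp wide and 6.78-fold enriched in control, had no counterpart after crotonate, and the nearest peak then lay 1646 bp away. The strongest H3K27me3 peak, deep in the body, was 5257 bp wide and 121-fold enriched in control, and 5787 bp wide and 58.6-fold after crotonate. H3K4me3 covered 4168 bp and 6140 bp. A H3K4me3 peak of 1350 bp and 12.4-fold enrichment, 33220 bp downstream of the start, was found after crotonate only and lay in that H3K27me3 domain. H3K9cr covered 5567 and 6833 bp of the window. The window also holds the H3K4me3 peaks of Grwd1 and Kdelr1. Without peaks that overlap another gene, H3K4me3 cover at Grin2d was at least 2-fold higher after crotonate.

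Grik4 (chromosome 9, 42518182 to 42945000) encodes the kainate subunit GluK4. A H3K27me3 peak of 1407 bp and 8.67-fold enrichment began 88 bp from its start in control. After crotonate no such peak was called there, and the nearest began 2221 bp upstream, with 4.63-fold enrichment. Over the whole window H3K27me3 covered 8435 bp in control and 7951 bp after crotonate, in 11 and 15 peaks of which 6 were lost and 10 gained. These scattered body peaks were weak, at most 5.45-fold enriched after crotonate. At the start H3K4me3 was 101-fold and 82-fold enriched, H3K9cr 74.3-fold and 44.6-fold, and H3K27ac 11.7-fold and 10-fold.

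Grm5 (chromosome 7, 87583981 to 88135063) encodes mGluR5, a metabotropic receptor that couples to Gq. Its H3K27me3 in control was a lone peak of 269 bp with 3.36-fold enrichment, overlapping the outer edge of an H3K4me3 peak of 4927 bp that was 97.9-fold enriched. After crotonate the nearest H3K27me3 peak was 296406 bp away, and the H3K4me3 peak was 5601 bp wide and 122-fold enriched. Its H3K27ac peaks numbered 7 in control and 17 after crotonate, with 10 gained, more than at any other receptor gene, yet H3K27ac covered 11833 and 12146 bp. The gained peaks were 221 to 593 bp wide, and the widest shared ones were narrower after crotonate, so the count and the length gave different pictures.

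**Figure D2:**
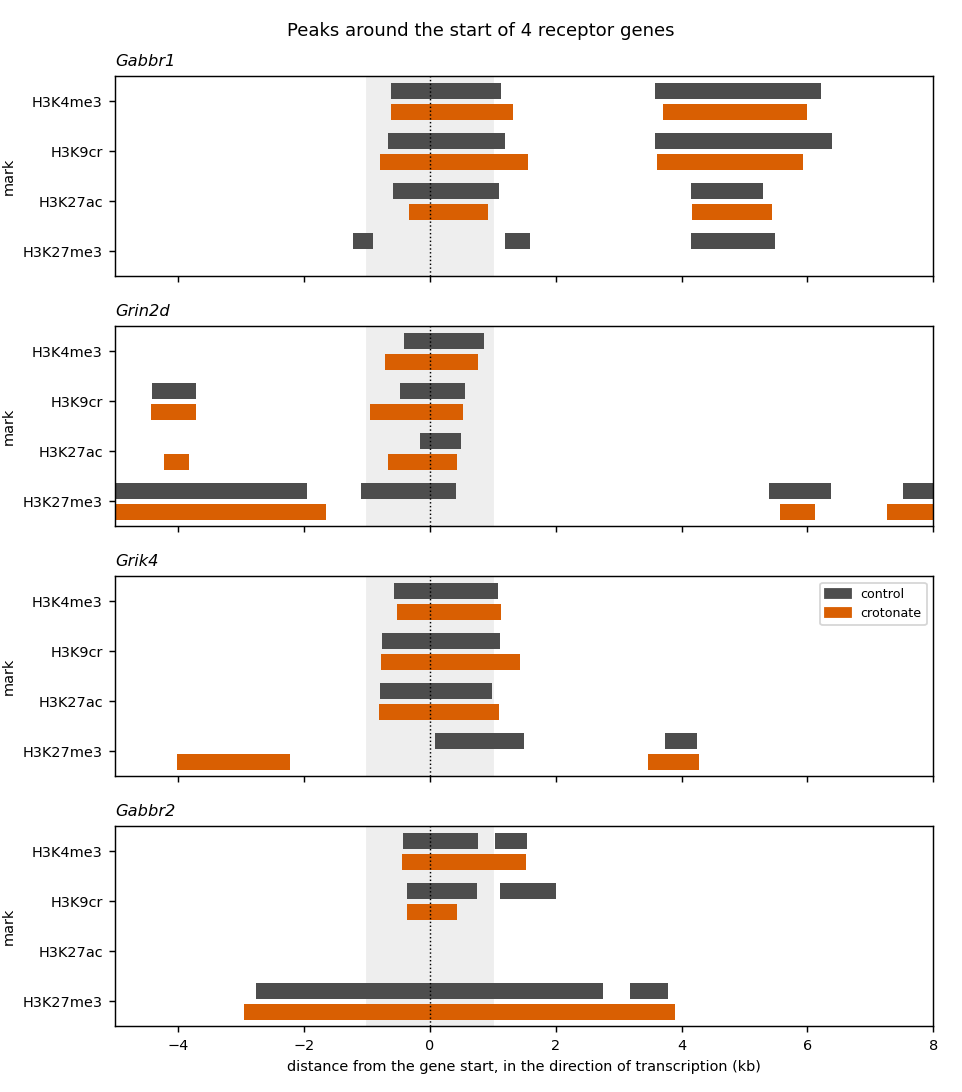
Peaks of the 4 marks from 5 kb before to 8 kb after the start of Gabbr1, Grin2d, Grik4 and Gabbr2, in control (grey) and after crotonate (orange), by distance from the start in kb along the direction of transcription. Bars are peaks and the shaded band is the 1 kb window. H3K27me3 bars touch the band in control at all 4 genes, and after crotonate only at Gabbr2.

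The next comparison took the length of each window covered by peaks. Over the 38 genes H3K4me3 covered 80.1 kb in control and 90.2 kb after crotonate, 1.13 times as much (1.06 times over all genes). It was longer after crotonate at 28 of the 34 receptor genes that carried it (82.4%), against 69.6% of all marked genes and 72.6% of marked genes of at least 100 kb. H3K9cr covered 108 and 106 kb, a ratio of 0.978 (0.973 over all genes and 0.895 over long ones). It was longer at 18 of 34 genes (52.9%), against 53% and 38.6%. H3K27ac covered 132 and 121 kb, a ratio of 0.919 (0.896 and 0.861). It was shorter at 18 of 29 genes (62.1%), against 68.5% and 69.3%. H3K27me3 covered 189 and 194 kb, a ratio of 1.03 (1.04 and 0.978). It was shorter at 17 of 32 genes (53.1%), against 47.9% of all marked genes and 61.8% of long ones. The totals for H3K9cr and H3K27me3 have no firm direction, since the ratio of 0.978 for H3K9cr was 1.14 with the stronger 50% of each list, and the ratio of 1.03 for H3K27me3 was 0.971 with equal numbers of peaks. The H3K4me3 ratio was 1.93 with the stronger 50% of each list.

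**Figure D3:**
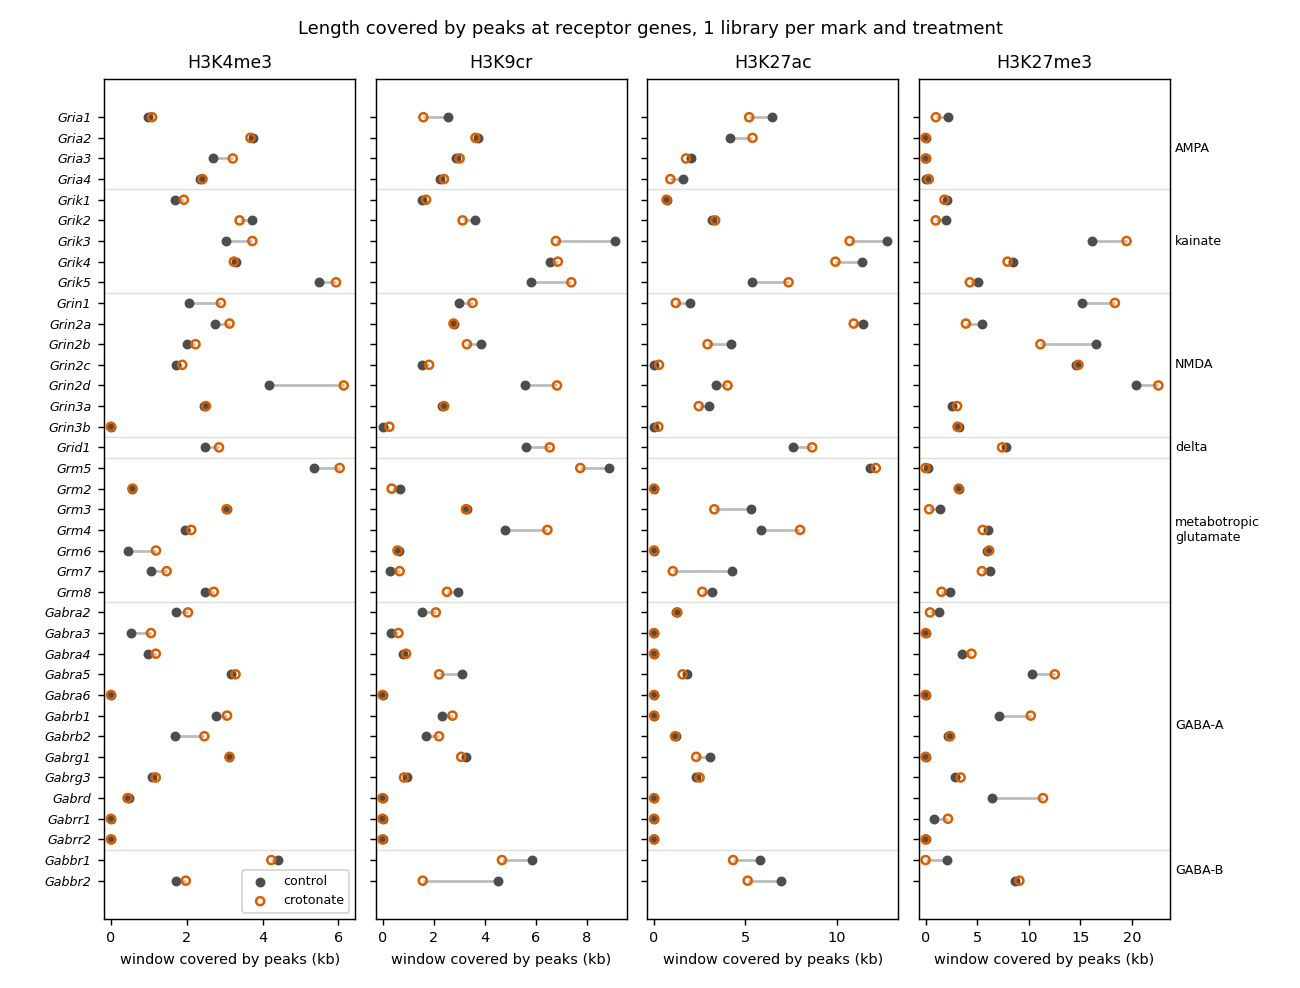
Length of each receptor gene's window covered by peaks (kb, linear axis), with 1 panel per mark and filled grey points for control and open orange points for crotonate. Rows are the 38 genes by receptor class. In the H3K4me3 panel the orange point lies right of the grey one at 28 genes, and in the H3K27me3 panel the grey points of the NMDA genes Grin1, Grin2b, Grin2c and Grin2d lie furthest right together with that of the kainate gene Grik3.

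Covered length differed at least 2-fold at few receptor genes. For H3K4me3 this was Grm6 alone, which was longer (3.46% of all marked genes and 2.05% of long ones were), and none was shorter (0.454% and 0.179%). For H3K9cr Grin3b and Grm7 were longer (3.62% and 2.27%) and Gabbr2 shorter (1.85% and 2.23%). For H3K27ac Grin2c and Grin3b were longer (5.28% and 4.04%) and Grm7 shorter (5.57% and 7.63%). For H3K27me3 Gria4 and Gabrr1 were longer (18.5% and 8.44%), and Gria1, Grik2, Grm3, Grm5, Gabra2 and Gabbr1 shorter (17% and 23.8%). Among them, Grin3b had H3K9cr after crotonate only (2.57% of all marked genes and 1.53% of long ones). Grin2c and Grin3b had H3K27ac after crotonate only (3.57% and 2.19%), and Gria4 H3K27me3 (12.3% and 5.49%). No receptor gene had H3K4me3 in control only (0.374% of all marked genes and 0.179% of long ones) or after crotonate only (2.32% and 0.983%). None had H3K9cr (0.899% and 0.306%) or H3K27ac (2.45% and 1.8%) in control only. The 6 of 32 genes (18.8%) with shorter H3K27me3 lay near both backgrounds. With equal numbers of peaks Gria4 was no longer among the longer ones, and Gabrd joined as the gene with shorter H3K4me3. Without peaks in another gene, Gabra5 joined Gabbr2 for H3K9cr.

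AMPA receptor genes carried the least H3K27me3, 2.2 kb in control and 1.3 kb after crotonate over 4 windows. All of it in control was at Gria1, the GluA1 gene, which had 2200 and 995 bp. The class ratio of 0.591 was 0.222 with the stronger 50% of each list. At Gria1 the H3K4me3 peak at the start was 972 bp wide with 5.84-fold enrichment in control, and 1082 bp with 20.1-fold after crotonate. An H3K27ac peak of 390 bp and 5.16-fold enrichment at that start was found after crotonate only. Gria4, for GluA4, had the most enriched H3K4me3 of the class (103-fold and 124-fold), no H3K27me3 in control and 1 peak of 306 bp and 2.94-fold enrichment after crotonate, its near edge 1654 bp downstream of the start. Gria2, for GluA2, the subunit that makes AMPA channels impermeable to calcium, had a broad start domain in both treatments. There H3K4me3 covered 3742 and 3678 bp, H3K9cr 3755 and 3640 bp, and H3K27ac 4164 and 4002 bp. With 4 weak peaks of 254 to 434 bp gained in its body, H3K27ac over the Gria2 window was 4164 bp in control and 5393 bp after crotonate.

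Kainate receptor genes had 33.7 kb of H3K27me3 in control and 34.6 kb after crotonate, and Grik3 held about as much of it as all others together. H3K27me3 was longer after crotonate at Grik3 alone, with 16105 and 19497 bp, and shorter at the other 4. The class total turned to a ratio below 1 without Grik3 (0.857), with equal numbers of peaks (0.871), with peaks within 3 kb merged (0.911) and with the stronger 50% of each list (0.97). At Grik3, the GluK3 gene, H3K9cr covered 9118 and 6790 bp, H3K27ac 12751 and 10714 bp, and H3K4me3 3044 and 3728 bp. Grik2, for GluK2, had H3K27me3 over 1979 and 984 bp, and H3K4me3 over 3725 and 3392 bp. At Grik5 H3K27ac covered 5384 and 7368 bp, with 5 and 10 peaks, and H3K9cr 5812 and 7394 bp. The 250-fold H3K4me3 peak in the Grik5 window overlaps the neighbour Zfp574, and the one at its own start was 87.4-fold enriched in control and 109-fold after crotonate.

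NMDA receptor genes were the class most covered by H3K27me3. Peaks took up 6.31% of their windows in control and 6.23% after crotonate, against 1.81% and 1.86% over all receptor genes and 2.55% and 2.64% over all protein-coding genes. The summed length was 77.9 and 77 kb, a ratio of 0.988 that was 1.03 with the stronger 50% of each list and 1.02 with peaks merged. The genes of this class differed in direction. Grin1, the gene of the obligatory GluN1 subunit, had 15196 bp in control and 18365 bp after crotonate, with 1 peak of 5480 bp just upstream of the start where the control list had peaks of 1365 and 1864 bp. Grin2b, the GluN2B gene, had 16528 and 11139 bp, the largest difference downward of any receptor gene. Its start peak was 2998 bp wide and 40.9-fold enriched in control, and 2255 bp and 20.4-fold after crotonate, and 3 of its 10 control peaks were lost. Grin2a, for GluN2A, had 5501 and 3909 bp. Grin2c, for GluN2C, had 14562 and 14825 bp.

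H3K4me3 was longer after crotonate at all 6 NMDA genes that carried it (69.6% of all marked genes and 72.6% of long ones), with 15.1 kb in control and 18.8 kb after crotonate, a ratio of 1.24 that was 1.15 without Grin2d and 1.01 with the stronger 50% of each list. At Grin1 it covered 2056 and 2899 bp, with a weak gained peak of 661 bp far downstream of the start. Grin2c had no H3K27ac in control and a peak of 271 bp and 4.08-fold enrichment at its start after crotonate. Grin3b, which encodes a GluN3 subunit of glycine-gated receptors, gained an H3K9cr peak of 268 bp and 3.57-fold enrichment at its start, and an H3K27ac peak of 237 bp in its flank that overlaps Tmem259. The H3K27ac peak in the Grin3b window was 4.35-fold enriched. These peaks lay below the median fold enrichment of their crotonate lists, 4.62 for H3K27ac and 9.42 for H3K9cr. Grid1, the gene of the GluD1 delta receptor, was bivalent in both treatments. H3K27me3 covered 7810 bp there in control and 7419 bp after crotonate, H3K4me3 2472 and 2849 bp, H3K9cr 5617 and 6550 bp, and H3K27ac 7605 and 8662 bp.

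Metabotropic glutamate receptor genes had 25.6 kb of H3K27me3 in control and 22.3 kb after crotonate, a ratio of 0.871 that was 0.998 with peaks within 3 kb merged. It was shorter at 6 of the 7 genes (47.9% of all marked genes and 61.8% of long ones), and at Grm6, the mGluR6 gene known from retinal bipolar cells, it was 5966 and 6171 bp. Grm3, for mGluR3, had 1443 and 346 bp, and its H3K27ac covered 5310 and 3301 bp. H3K4me3 at Grm6 was a 453 bp peak with 5.62-fold enrichment in control and a 1186 bp peak with 14.2-fold enrichment after crotonate, at a start that carried H3K27me3 in both. Grm7, the mGluR7 gene, had the widest H3K27me3 of the class in control, with 6250 and 5458 bp, and differed in several marks. Its H3K27ac covered 4249 bp in control and 1027 bp after crotonate, all of it more than 700 kb inside the gene. That difference of -3222 bp was -454 bp with peaks within 3 kb merged. At the Grm7 start an H3K9cr peak of 670 bp and 4.04-fold enrichment was found after crotonate only, and H3K4me3 there was 13.3-fold and 24.8-fold enriched. At Grm4, for mGluR4, H3K27ac covered 5862 and 7997 bp and H3K9cr 4781 and 6458 bp, while H3K27me3 covered 6010 and 5542 bp. An H3K27ac peak of 928 bp and 3.81-fold enrichment was found after crotonate only at the annotated end of Grm4 opposite to its H3K4me3.

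At GABA-A receptor genes H3K27me3 covered a greater length after crotonate. It covered 31 kb in control and 42.5 kb after crotonate, a ratio of 1.37 (1.04 over all genes and 0.978 over long ones). It was longer at 7 of the 8 genes that carried it, against 50.6% of all marked genes and 38.2% of long ones. The ratio lay between 1.3 and 1.5 under the other settings tried and between 1.27 and 1.45 when any gene of the class was left out. Leaving out Gabra3, Gabra6, Gabrg1 or Gabrr2, which had no H3K27me3, could not change it. Without Gabra4 it was also 1.37, since the peaks there still counted for Gabrb1. Gabra4 and Gabrb1 were not left out together. The largest difference was at Gabrd, the gene of the delta subunit of extrasynaptic receptors, with 6403 bp in control and 11390 bp after crotonate. The peak at its annotated end was 4475 bp wide and 42.3-fold enriched in control and 6178 bp and 26.4-fold after crotonate, and 3 weak peaks were gained. Several of these peaks also overlap the neighbour Cfap74. Gabrb1, for the beta1 subunit, had 7119 and 10202 bp, Gabra5, for alpha5, 10364 and 12535 bp, and Gabra4, for alpha4, 3567 and 4453 bp. The peaks of Gabra4 also count for Gabrb1, so these 2 genes are not separate cases. Gabrr1 had 783 and 2173 bp in its body and no other mark. Fold enrichment did not rise with length. The highest H3K27me3 enrichment in the window was lower after crotonate at each marked gene of the class except Gabrr1 (5.42 and 7.09). At Gabra5 it was 51 and 40, at Gabrb1 19.5 and 16.6, and at Gabrb2 5.69 and 3.63. It was also lower at every gene of the other classes that carried H3K27me3 in both treatments. Examples are Grik3 (65 and 28.9) and Grm4 (37.4 and 10.9).

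Gabra2, the alpha2 gene, was the exception of the class in covered length, with 1317 bp of H3K27me3 in control and 426 bp after crotonate. Its H3K4me3 peak was the most enriched of the class, 132-fold in control and 158-fold after crotonate. It also had H3K27ac at its start, with 1221 and 1277 bp over the window. H3K4me3 over the GABA-A genes covered 14.5 and 16.6 kb and was longer at 8 of 9 genes (69.6% of all marked genes). At Gabrb2, for beta2, it covered 1680 and 2462 bp. At Gabra3, on chromosome X, it was a 541 bp peak of 5.62-fold enrichment in control and a 1055 bp peak of 19.4-fold enrichment after crotonate. Gabra6 and Gabrr2 had no peak of any mark in either treatment.

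GABA-B receptors work as a dimer of the products of Gabbr1 and Gabbr2, and the chromatin of these genes differed. Gabbr2 (chromosome 4, 46662318 to 46991714) kept a broad H3K27me3 domain at its start, 5511 bp wide and 61.5-fold enriched in control and 6847 bp and 41.2-fold after crotonate. Over its window H3K27me3 covered 8710 and 9098 bp. H3K9cr covered 4528 bp in control and 1577 bp after crotonate, the only receptor gene at least 2-fold shorter in that mark. Of its 5 H3K9cr peaks in control, 3 were lost, with fold enrichments of 3.16, 5.27 and 4.01. H3K27ac covered 6959 and 5128 bp in the Gabbr2 window and did not lie at its start. At Gabbr1, as given above, H3K27me3 was absent from the list after crotonate.

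Peaks were also counted as lost or gained when no peak of the other treatment overlapped them by at least 1 bp. Intervals are exact binomial 95% intervals and cover counting error only. At receptor genes 0 of 50 H3K4me3 peaks were lost (up to 7.11%, whole list 2.81%) and 3 of 52 gained (5.77%, 1.21 to 15.9, whole list 6.88%), all at Grin1, Grin2c and Grin2d. Of H3K9cr peaks, 17 of 85 were lost (20%, 12.1 to 30.1, whole list 15.1%) and 7 of 76 gained (9.21%, 3.78 to 18.1, whole list 15.3%). Of H3K27ac peaks, 38 of 133 were lost (28.6%, 21.1 to 37, whole list 25.3%) and 57 of 150 gained (38%, 30.2 to 46.3, whole list 30.1%). Of H3K27me3 peaks, 33 of 113 were lost (29.2%, 21 to 38.5, whole list 26.4%) and 40 of 123 gained (32.5%, 24.4 to 41.6, whole list 45.2%). In windows of genes of at least 100 kb, 34.4% of H3K27ac peaks and 35.6% of H3K27me3 peaks were gained, within the receptor genes' intervals. With a required overlap of 50% of each peak, 55.8% of H3K27me3 peaks at receptor genes were lost and 59.3% gained, and with peaks within 1 kb counted as shared 20.4% and 20.3%.

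**Figure D4:**
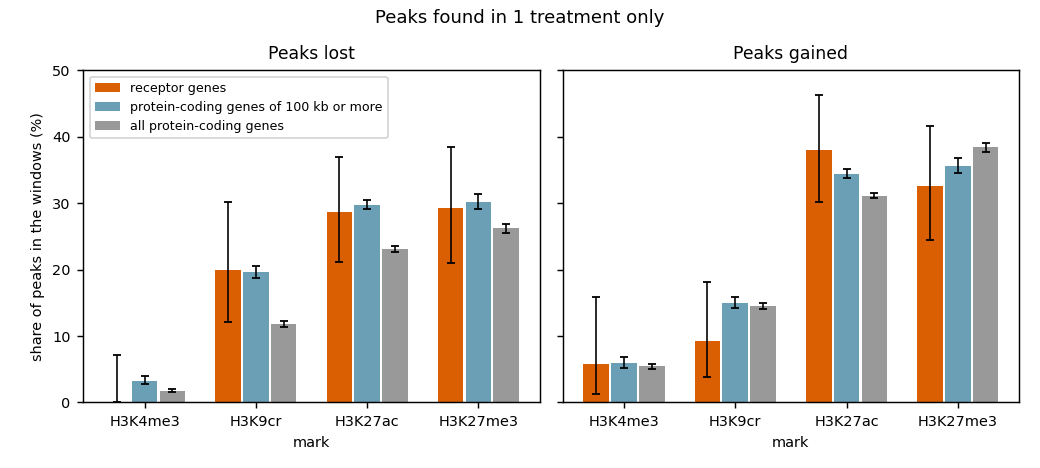
Share of peaks (%) lost, out of the control peaks, and gained, out of the crotonate peaks, in the windows of the 38 receptor genes (orange), of protein-coding genes of at least 100 kb (blue) and of all protein-coding genes (grey). Error bars are exact binomial 95% intervals for counting error only. The receptor interval holds the share of the long genes for each mark, from 0% lost for H3K4me3 to 38% gained for H3K27ac.

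Of the 57 gained H3K27ac peaks, 51 lay in gene bodies, and their median width was 317 bp. In all, 50 of the 57 touched no other mark, as did 92% of those gained in the windows of all protein-coding genes. Of the 40 gained H3K27me3 peaks, 39 touched no other mark (98.1% in all windows) and 0 lay at a start (8.27%). Of the 33 lost ones, 6 lay at a start (24.5%), at Grik1, Grik4, Grin2d, Grm5, Gabra2 and Gabbr1. The shares over all windows count a start of any protein-coding gene. Grik1, for GluK1, and Gabra2 kept another H3K27me3 peak there. Of the 17 lost H3K9cr peaks, 15 touched H3K27ac in control (88.7% in all windows). After crotonate H3K27ac was found at 3 of the 12 bivalent starts that lacked it in control (18.5% of 943 such genes), those of Gria1, Grin2c and Grm4. Leaving out Grm4, whose peak lay at the opposite end, 23 receptor starts had H3K27ac after crotonate. No receptor start with H3K27ac in control was without it after crotonate, which 2.97% of 12648 such genes were.

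H3K27me3 was last compared between receptor genes with and without an H3K27ac peak in the window in control. Of the 24 with H3K27ac, H3K27me3 was shorter after crotonate at 15 and longer at 9, where 56.8% of all such genes were shorter. Of the 8 without it, H3K27me3 was longer at 6 (Grin2c, Grm6, Gabra4, Gabrb1, Gabrd and Gabrr1) and shorter at Grin3b and Grm2, where 77.3% of all such genes were longer. Both counts lay near the background. Of the 7 GABA-A genes with longer H3K27me3, Gabra5, Gabrb2 and Gabrg3 had H3K27ac in the window and Gabra4, Gabrb1, Gabrd and Gabrr1 had none.

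**Figure D5:**
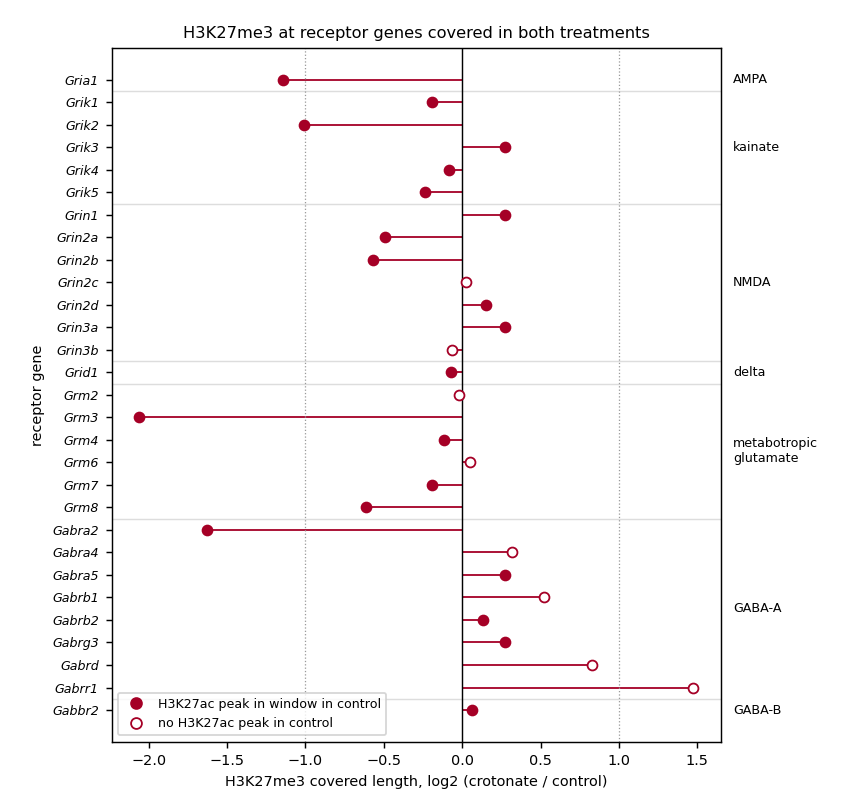
Difference in H3K27me3 covered length (log2 of crotonate over control) at the 29 receptor genes covered in both treatments, by class, with filled points for genes with an H3K27ac peak in the window in control and open points for genes without. Dotted lines mark 2-fold. GABA-A genes lie right of 0 except Gabra2, and metabotropic genes lie left of 0 except Grm6.

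Other genes of the same transmitter systems, from lists chosen with earlier results of these data known, gave the following counts. Of 17 genes for synthesis, breakdown and transport of glutamate and GABA, 9 had bivalent starts in control and 7 after crotonate. Over all protein-coding genes 16.2% and 14.1% of starts were bivalent. Not every call in these lists is named here. In that list H3K27ac was at least 2-fold shorter at Abat, Slc1a1 and Slc6a13, out of 12 genes with that mark (5.57% of all marked genes). H3K4me3 and H3K9cr were at least 2-fold longer at Slc17a7, the gene of the vesicular glutamate transporter VGLUT1 (3.46% and 3.62% of all marked genes). H3K9cr was at least 2-fold shorter at Slc32a1, the gene of the vesicular GABA transporter (1.85%). Each list of marked genes held 14 here. Of 28 genes for auxiliary subunits and scaffolds, 11 were bivalent in control and 9 after crotonate. Of the 18 of them with H3K27me3, it was at least 2-fold shorter at Grip1, Cacng7 and Cacng8 (17% of all marked genes). It was at least 2-fold longer at Neto2, which encodes an auxiliary subunit of kainate receptors (18.5%).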

How the data were processed

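Marks were compared at 38 receptor genes between 1 control and 1 crotonate library per mark. The submitters' processing notes list Bowtie2 2.4.1, MACS2 2.2.7.1 and GRCm38. How peaks were called, whether duplicates were removed and how the inputs entered is not given in the sources used here. Per the file headers each list is a peak table of 1 library. Pileup, a signal of stacked fragments at a peak's highest point, was deposited for every peak and served only as a description. The authors' fold enrichment is a ratio of that pileup to local background. Significance was deposited for that point as −log10 q-value and −log10 p-value. These values were used to describe peaks and to rank them within 1 list. Fold enrichments of control and crotonate peaks were given side by side with no scaling between lists. Peak lengths were deposited in bp. Positions count from 1.

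Gene positions, starts (for 28 genes) and promoters came from RefSeq tables of GRCm38.p6, matched by symbol and gene ID. All 38 genes matched, and starts of 17491 of 21883 genes. For the other genes a mark at either annotated end was counted, and both marks had to lie at the same end for a bivalent state. Python 3.11.15 with numpy 2.4.6, pandas 2.3.3, scipy 1.17.1 and matplotlib 3.10.9 computed covered length (the union of peaks in a window of the gene plus 5 kb either side), peaks without overlap in the other treatment, and states within 1 kb of the start. The scripts were tested on simulated peak lists. Alternatives were the gene body alone, the stronger 50% of each list, equal numbers of peaks, merging within 3 kb, a 50% overlap or a 1 kb distance for shared peaks, leaving out peaks in another gene, and start windows of 500 bp and 2 kb. Counting bivalent starts over genes with a RefSeq start only was chosen after seeing the data. The genes and lists were chosen with earlier results of these data known. Genes named are those with a mark in 1 treatment only, those whose start state differed, the 3 largest differences each way per mark, and the highest H3K4me3 enrichment and widest H3K27me3 in each class. Genes outside this rule were named after their values were seen. 1 result of a list of related genes is not reported here.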

Additional observations from a re-analysis of the deposited data

How the results depend on the processing

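No paired analysis was possible because each mark and treatment has 1 library and replicate numbers only name the samples. For the same reason no library could be left out, and depth is unknown, so narrower or fewer peaks and lower depth cannot be told apart. Under the settings tried, most counts over the receptor genes kept their size, with these exceptions, whose cause was not tested beyond the construction of each setting. With the stronger 50% of each list, 10% of H3K4me3 peaks were lost and 43.8% gained, 2.94% of H3K9cr, 11.7% of H3K27ac and 18% of H3K27me3 peaks were lost, and 24.6% of H3K27ac peaks gained. The ratio of covered lengths was then 1.93 for H3K4me3 (AMPA 1.63, kainate 2.13) and 1.14 for H3K9cr (AMPA 1.16, kainate 1.12, GABA-B 1.0), 1.03 for H3K27ac at NMDA genes, and for H3K27me3 0.222 at AMPA, 0.97 at kainate, 1.03 at NMDA and 1.51 at GABA-B genes. With the gene body alone the H3K27me3 ratio at GABA-B genes was 0.548. In the stronger 50% bivalent starts differed by 1 (4 in control, 5 after crotonate). With an overlap of 50% of both peaks, 19.7% of H3K9cr peaks were gained, 46.6% of H3K27ac peaks lost and 52.7% gained, and 55.8% of H3K27me3 peaks lost and 59.3% gained. With peaks within 1 kb counted as shared, 18.8% of H3K27ac peaks were lost, and 20.4% of H3K27me3 peaks lost and 20.3% gained. With equal numbers of peaks the H3K27me3 ratio was 0.971 (kainate 0.871), 1 gene had H3K27me3 at least 2-fold longer and 1 gene H3K4me3 at least 2-fold shorter. With peaks within 3 kb merged, the ratio was 1.0 for H3K9cr (metabotropic 0.959), 0.974 for H3K4me3 at GABA-B genes, 1.01 for H3K27ac at metabotropic genes, and for H3K27me3 0.911 at kainate and 1.02 at NMDA genes, while the differences at Grm7 (H3K27ac, -454 bp) and Gria1 (H3K27me3, -848 bp) no longer reached 2-fold. Without peaks in another gene, 2 genes had H3K4me3 at least 2-fold longer and 2 genes H3K9cr at least 2-fold shorter. The difference in bivalent starts, -4, was -7 within 500 bp and -2 within 2 kb. Over genes with a RefSeq start, an alternative chosen after seeing the data, 19 of 28 were bivalent in control and 16 after crotonate.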
